A study of Mus musculus with 2 samples.

Results

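The nuclear-encoded genes of oxidative phosphorylation (OXPHOS) were followed in single-cell RNA-Seq of mouse cholangiocarcinoma (CCA), a cancer of the bile duct lineage. Members were set by a rule on symbols, with earlier results of these data known. The rule took symbols that begin with *Nduf*, *Uqcr*, *Cox4i*, *Cox5*, *Cox6*, *Cox7*, *Cox8* or *Atp5*, together with *Cyc1*, *Cycs* and *Sdha* to *Sdhd*. Pseudogenes and unnamed clones were left out. This gave 96 entries with 95 symbols out of 32589 genes, and left out 1 entry, *Ndufb1-ps*. They comprised 36 subunits of complex I, 8 assembly factors of complex I, 4 genes of complex II, 9 of complex III, 1 for cytochrome c, 20 of complex IV and 18 of complex V. *Atp5o* had 2 entries that overlap on chromosome 16. The first held 85 and 113 UMIs in the kept cells of the 2 libraries and the second 19819 and 19210, so the second stands for the gene below.

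OXPHOS is the last stage of respiration in the inner mitochondrial membrane. Complexes I and II take electrons from NADH and succinate, complex III passes them to the mobile carrier cytochrome c, and complex IV hands them to oxygen. The proton gradient built on the way drives complex V, the ATP synthase. A small set of subunits is encoded by mitochondrial DNA and the rest by nuclear genes, many of which carry binding sequences for NRF1 or ETS factors near their start sites. Several subunits of complex IV exist as a widely expressed form and a tissue-restricted form.

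Both libraries came from livers with tumors driven by an activated Notch receptor (NICD) and myristoylated AKT, delivered by hydrodynamic tail vein injection. All animals carried doxycycline-inducible shRNAs against YAP and TAZ (shYT), expressed through a ubiquitous CAG-rtTA3 transgene and switched on at day 25, so stromal and immune cells carried them as well as tumor cells. One group received PBS and the other an antibody against PD-1 (clone RMP1-14) on days 26, 29 and 32, and livers were taken at day 33. The labels give no sex, age, number of animals or shRNA line. The study used mice of both sexes and describes several animals per group for this experiment, but cells were not hashtagged by animal and the files hold no such split. There was 1 library per group, so no test between groups was possible and every interval below covers counting error only.

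The PBS library kept 15531 of 19397 cell barcodes and the anti–PD-1 library 16360 of 19451, with medians of 3159 and 2990 UMIs (unique molecular identifiers, 1 per captured transcript). The libraries shared 219 barcode sequences, 145 of them among the kept cells. A gate on fixed marker genes, none of them a member, placed 86.2% and 84.8% of kept cells in 16 classes, of which 12 had at least 50 cells in both libraries. The tumor cell gate used epithelial markers and also takes in biliary epithelial cells. *Yap1* had 71 and 34 UMIs in tumor cells and *Wwtr1*, the TAZ gene, 81 and 20. With shRNA in both groups these do not measure the knockdown. Of PBS macrophages, 1765 had UMIs of *Xist*, the RNA that coats the silent X in females, and none of Y-linked genes, 304 had the reverse and 128 had both. Of anti–PD-1 macrophages, 0 were of the first kind, 499 of the second and 0 had both. The sex of the cells therefore differed between the libraries along with the treatment. UMIs of *Clec4f*, a Kupffer cell gene, were found in 9.36% of PBS and 31.6% of anti–PD-1 T cells. These are shares of cells at unequal depth, with medians of 2737 and 3625 UMIs. Doublets were not called, so background RNA and mixed barcodes were not told apart. Macrophages and Kupffer cells were divided by UMIs of *Clec4f*, and the part of such UMIs in the split was not tested. Macrophages numbered 3043 and 1098, at median depths of 7390 and 4906.5 UMIs, and Kupffer cells 1020 and 1878, at 9054 and 9719.5 UMIs.

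Members made up 2.13% (PBS) and 2.16% (anti–PD-1) of all UMIs of kept cells. Of the 96 entries, 93 reached 20 UMIs in at least 1 of the 12 classes and 84 in all 12. The 3 that reached it in none were *Cox8b*, *Cox8c* and *Cox7b2*, all tissue-restricted forms of complex IV subunits. *Cox8c* had no UMI in either library, which allows up to 0.0379 and 0.0386 CPM (counts scaled to a fixed total of UMIs per class and library) by a limit of 3 counts. *Cox8b* had 4 UMIs and 1 UMI, and *Cox7b2* had 2 and 0.

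Among the 12 classes compared, tumor cells gave the largest part of their UMIs to the members and plasma cells the smallest. Hepatocytes, with 61 and 18 cells too few to be compared, had 4.21% and 3.72%. Tumor cells had 3.43% with PBS and 3.35% with anti–PD-1. Next came monocytes with 2.31% and 2.61%, endothelial cells with 2.33% and 2.52%, T cells with 2.23% and 2.34%, and type 1 dendritic cells with 2.08% and 2.48%. Cancer-associated fibroblasts (CAFs) had 2.17% and 2.29%, NK cells 2.15% and 2.28%, macrophages 1.97% and 2.13%, and Kupffer cells 1.81% and 2.10%. B cells had 1.69% and 1.82%, neutrophils 1.48% and 1.53%, and plasma cells 1.10% and 1.35%. With the gap between the libraries as the only spread, tumor cells stood above monocytes without overlap, NK cells above macrophages, B cells above neutrophils and neutrophils above plasma cells. The other neighbours in the order overlapped. These are shares of all UMIs, and the part taken by cytosolic ribosomal protein genes differed between classes. With PBS it was 20.8% in T cells, 18.6% in B cells, 7.80% in Kupffer cells and 5.59% in plasma cells. The order was not recomputed without those genes. Shares per cell spread more widely than the libraries did: the middle 50% of PBS tumor cells lay between 2.73% and 3.94%.

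**Figure D1:**
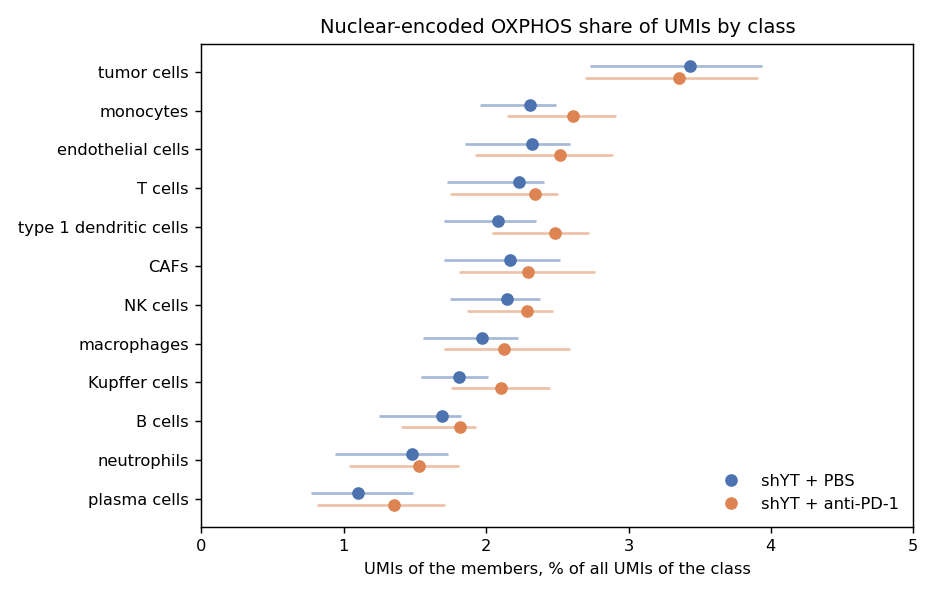
Share of UMIs from the 96 members in each of the 12 classes, on a linear axis in percent. Points are sums over the cells of a class in the shYT + PBS (blue) and shYT + anti-PD-1 (orange) library, and horizontal bars run from the lower to the upper quartile over single cells. Tumor cells, at 3.43% and 3.35%, lie to the right of every other class, and plasma cells, at 1.10% and 1.35%, to the left.

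Promoter windows are shown for *Cycs*, *Atp5k* and *Atp5md*, members whose log2 ratios between the libraries were among the highest. *Cycs* encodes cytochrome c, and *Atp5k* and *Atp5md* encode small membrane subunits of the ATP synthase. The windows are from RefSeq on GRCm38.p6, from 250 bases before to 50 after the start of the gene, at chr6:50566520-50566819 for *Cycs*, chr5:108434350-108434649 for *Atp5k* and chr19:47090598-47090897 for *Atp5md*, all on the reverse strand and written 5′ to 3′. Capitals mark matches of the NRF1 core GCGCNTGCG or the ETS core CCGGAAG on either strand.
Cycs: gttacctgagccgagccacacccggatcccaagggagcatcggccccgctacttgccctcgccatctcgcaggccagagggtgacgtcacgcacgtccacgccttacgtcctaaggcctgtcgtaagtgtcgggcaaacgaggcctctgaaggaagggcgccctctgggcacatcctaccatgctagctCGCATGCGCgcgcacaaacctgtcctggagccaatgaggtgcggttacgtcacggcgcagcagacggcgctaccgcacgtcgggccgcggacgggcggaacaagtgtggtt
Atp5k: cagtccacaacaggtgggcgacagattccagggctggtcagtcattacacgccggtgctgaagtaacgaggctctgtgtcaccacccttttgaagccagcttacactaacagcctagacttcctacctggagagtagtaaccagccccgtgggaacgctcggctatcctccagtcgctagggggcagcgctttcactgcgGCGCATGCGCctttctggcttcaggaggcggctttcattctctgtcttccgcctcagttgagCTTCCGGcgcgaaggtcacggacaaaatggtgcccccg
Atp5md: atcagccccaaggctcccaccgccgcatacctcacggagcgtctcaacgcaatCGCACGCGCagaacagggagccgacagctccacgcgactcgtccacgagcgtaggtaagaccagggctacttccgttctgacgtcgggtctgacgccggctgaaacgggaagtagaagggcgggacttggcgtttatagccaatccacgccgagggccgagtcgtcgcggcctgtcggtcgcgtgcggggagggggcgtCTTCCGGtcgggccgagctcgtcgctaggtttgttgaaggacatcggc
*Atp5k* held a pair of overlapping NRF1 matches, 1 on each strand, and an ETS match. *Atp5md* held 1 of each kind, and *Cycs* an NRF1 match only. Windows were found for 77 of the 96 entries, 82 windows in all. The NRF1 core was present in 34.1% of them, against 6.31% of all 32851 windows of the same length and 11.7% of the windows of genes with at least 100 UMIs here. For the ETS core the shares were 23.2%, 8.86% and 15.6%. By gene, the NRF1 core was found for 9 of 32 complex I subunits, 9 of 15 complex V genes, 3 of 5 complex III genes and 1 of 14 complex IV genes. A match is a run of letters and not a measured binding site.

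Between the libraries, the summed level of the members was higher with anti–PD-1 in 11 of the 12 classes, and lower in tumor cells. The amounts depend on the scaling, the gate, the cell filters, thinning and the weighting of cells, as listed in the closing section. With the median of all genes set to 0, the ratio of sums was 0.02 in tumor cells and between 0.20 and 0.27 in macrophages, T cells, NK cells, B cells and neutrophils. The direction turned in some settings: with members of at least 1000 bases, chosen after seeing the data, the ratio was −0.04 in macrophages, −0.02 in T cells and −0.00 in NK cells, and in tumor cells it was 0.01 with up to 20% mitochondrial UMIs and 0.01 with members under 600 bases. The 12 comparisons share both libraries and are given side by side. The log2 ratio of the sums (anti–PD-1 over PBS) was 0.30 in plasma cells, 0.25 in type 1 dendritic cells, 0.22 in Kupffer cells and 0.18 in monocytes. It was 0.12 in endothelial cells, 0.11 in macrophages, 0.10 in B cells, 0.09 in NK cells, 0.08 in CAFs, 0.07 in T cells and 0.05 in neutrophils, and −0.03 in tumor cells. Alternative settings were run only in T, NK, B and tumor cells, neutrophils and macrophages. The 2 highest ratios rest on few cells, 101 and 61 plasma cells and 102 and 75 type 1 dendritic cells. In plasma cells 59.0% of all genes were above 0, with a median of 0.10, and the medians over single cells were 0.996% and 1.11%. Within the PBS library alone, cells with Y-linked and no *Xist* UMIs differed from cells with *Xist* and no Y-linked UMIs by −0.09 in macrophages, −0.14 in neutrophils, −0.13 in NK cells, −0.06 in T cells, 0.04 in B cells and 0.16 in tumor cells. Between the libraries, cells with Y-linked and no *Xist* UMIs alone had ratios of 0.17 in macrophages, 0.19 in NK cells, 0.10 in T cells, 0.05 in B cells, 0.02 in neutrophils and −0.16 in tumor cells.

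**Figure D2:**
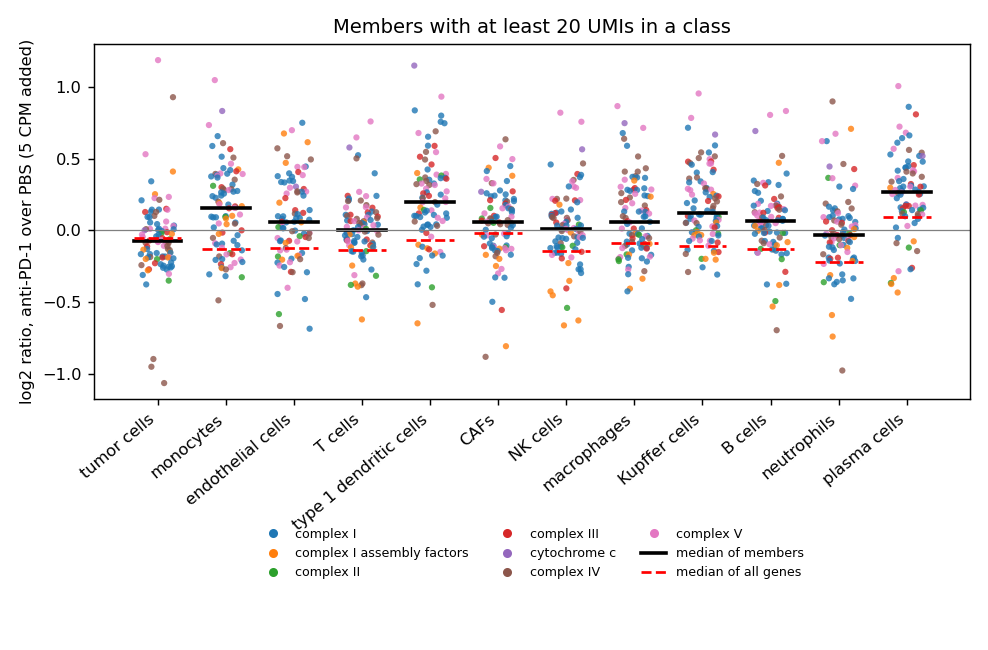
Log2 ratio (anti-PD-1 over PBS, 5 CPM added to both) of each member with at least 20 UMIs, 1 point per member, in 12 classes ordered by share of UMIs and coloured by complex. Black lines are medians of the members and red dashed lines medians of all genes tested. The member median lies above the all-gene median in every class but tumor cells, where it is −0.08 against −0.05.

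The complexes had different ratios. Complex V had log2 ratios of its sums from 0.04 in tumor cells to 0.33, and complex III from −0.04 to 0.29. Complex I ranged from −0.07 to 0.31 and complex IV from −0.05 to 0.30. Complex II, which also serves the TCA cycle, ranged from −0.19 to 0.23 with a median over classes of −0.08, and the complex I assembly factors from −0.32 to 0.24 with a median of −0.07. Cytochrome c had the highest median, 0.58, with a range from 0.00 in tumor cells to 1.16. Across classes and libraries, complex I gave 26.4% to 31.3% of the members' UMIs, complex IV 27.8% to 31.8%, complex V 25.3% to 30.0% and complex III 9.27% to 10.4%. The small units varied more in proportion, with 0.657% to 2.88% from cytochrome c, 1.55% to 3.15% from complex II and 0.681% to 1.18% from the assembly factors.

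A few members stood near an end of the range in several classes but not in all, and all were read from the same pair of libraries. They were named after their values were seen. The log2 ratio of *Atp5k* ran from 0.44 in endothelial cells to 1.05 in monocytes, where it was at 164.3 and 344.5 CPM. *Atp5md* ran from 0.23 to 1.00, the latter in plasma cells at 105.5 and 216.6 CPM. *Cycs* reached its highest ratio in type 1 dendritic cells, at 320.1 and 714.6 CPM (246 and 650 UMIs), and in CAFs it was at 169.6 and 205.4 CPM. *Ndufa3* ran from 0.34 to 0.75 and *Cox7c*, a small complex IV subunit, from 0.21 to 0.63. At the other end, *Cox7a2l*, which helps respiratory complexes join into supercomplexes, ran from −0.52 to −0.02. In type 1 dendritic cells it was at 485.3 and 337.5 CPM and in monocytes at 447.9 and 318.4 CPM. In B cells its log2 ratio was −0.09, above the median of all genes at −0.13. *Ndufaf4*, an assembly factor of complex I, ran from −0.80 in CAFs to −0.00. The first value rests on 95 and 18 UMIs, of which only the higher library reaches 20.

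In T cells the summed level was 22280.5 CPM with PBS and 23449 CPM with anti–PD-1. Of 91 members tested (at least 20 UMIs in the class), 47 had a ratio above 0, or 51.6%, against 28.9% of all genes tested. Their median log2 ratio was 0.00, while that of all genes was −0.14. At least 1.5-fold higher were 2 members, *Atp5md* and *Atp5k*, where 3.18% of all genes were, and 1 member, *Ndufaf1*, was at least 1.5-fold lower, where 4.87% of all genes were. *Atp5md* stood at 243.1 and 414.5 CPM, a log2 ratio of 0.76. *Atp5k* stood at 156.6 and 248.1 CPM, and *Cycs* at 182.6 and 274.9 CPM. The lowest ratios were those of *Ndufaf1*, a complex I assembly factor, at 17.9 and 9.89 CPM, *Ndufs7*, a core iron-sulfur subunit of complex I, at 169.1 and 121.2 CPM, and *Ndufaf3*, another assembly factor, at 42.5 and 31.2 CPM. The last was at −0.39 on the log2 scale.

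Markers of other classes differed between the libraries in the lymphocytes as well. The summed CPM of neutrophil markers was 263.5 and 742.6 in T cells (7 of 8 higher), 187.2 and 727.2 in NK cells (8 of 8) and 258.9 and 1006 in B cells (8 of 8), and that of tumor cell markers 357.2 and 180.8, 344.6 and 191.2, and 485.1 and 226.8. None of these markers was at 0 in both libraries, and their part in the ratios was not tested. In NK cells 47 of 88 members were above 0, or 53.4%, against 34.8% of all genes, and the median was 0.01 against −0.14. *Atp5md* was at 246.7 and 439.0 CPM, *Atp5k* at 133.1 and 228.3 CPM, and these were the 2 members at least 1.5-fold higher, where 6.40% of all genes were. *Cycs*, the third highest, was at 198.9 and 296.5 CPM. *Ndufaf3* (41.5 and 25.1 CPM) and *Ndufaf5* (19 UMIs in each library) were at least 1.5-fold lower, where 13.0% of all genes were. *Ndufaf5* was named after its values were seen. *Sdhc*, a membrane anchor of complex II, was at 97.9 and 65.9 CPM, and *Ndufaf4*, an assembly factor, at 38.4 and 26.7 CPM. In B cells 56 of 89 members were above 0, or 62.9%, against 34.4% of all genes, with a median of 0.07 against −0.13. *Atp5k* (93.8 and 170.7 CPM), *Atp5md* (170.1 and 300.6 CPM) and *Cycs* (116.2 and 190.8 CPM) were at least 1.5-fold higher, where 4.69% of all genes were. *Ndufaf3* was at 37.7 and 24.6 CPM, *Sdhc* at 63.3 and 43.6 CPM, and *Ndufaf7* at 22.4 and 16.1 CPM. Only *Cox6b2*, with 16 and 14 UMIs, was at least 1.5-fold lower, where 9.72% of all genes were.

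In neutrophils the members divided, with 40 of 90 above 0, or 44.4%, against 28.3% of all genes. Their median was −0.03, and that of all genes −0.22. *Ndufaf7*, a methyltransferase needed for complex I assembly, was at 22.5 and 39.9 CPM and had the highest ratio of the well counted members, 0.71. *Atp5md* was at 208.2 and 334.9 CPM, and *Ndufa3*, a small accessory subunit of complex I, at 243.4 and 377.1 CPM. These with *Atp5k* and *Cox6a2* were the 5 members at least 1.5-fold higher, where 5.05% of all genes were. *Cox6a2* had 1 UMI with PBS and 44 with anti–PD-1, so it reached the minimum of 20 only through the library where it is higher. *Ndufaf3* (32.0 and 19.6 CPM), *Ndufaf1* (22 and 28 UMIs) and *Cox6b2* (35 and 40 UMIs) were at least 1.5-fold lower, where 16.2% of all genes were. *Ndufc2* was at 83.8 and 58.8 CPM and *Ndufb6* at 105.1 and 79.96 CPM, both accessory subunits of complex I. Neutrophils were shallow, with medians of 1601 and 2120 UMIs per cell. Summed markers of Kupffer cells were at 553.6 and 1049 CPM there (6 of 6 higher), of NK cells at 91.3 and 247.4 CPM (8 of 8) and of B cells at 115.8 and 227.3 CPM (8 of 8), while those of tumor cells were at 671.3 and 347.6 CPM (0 of 8) and of monocytes at 2703 and 2019.9 CPM (4 of 8). Their part in the ratios of neutrophils was not tested.

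In macrophages the ratio of sums was 0.11, from 19707 and 21286 CPM. Summed markers of other classes differed too, with neutrophil markers at 304.0 and 782.5 CPM (7 of 8 higher), Kupffer cell markers at 207.7 and 472.1 CPM (4 of 6), monocyte markers at 766.3 and 1225 CPM (6 of 8) and NK cell markers at 35.3 and 109.6 CPM (7 of 8), while tumor cell markers were at 228.7 and 208.8 CPM (4 of 8). Their part in the ratios of macrophages was not tested. Of 93 members 52 were above 0, or 55.9%, against 37.6% of all genes, with a median of 0.06 against −0.09. *Atp5k* was at 135.7 and 251.1 CPM, *Cycs* at 152.4 and 259.0 CPM, and *Atp5md* at 203.1 and 336.2 CPM. With *Ndufa3*, *Ndufa5* and *Cox6a2* they were the 6 members at least 1.5-fold higher, where 6.38% of all genes were. No member was at least 1.5-fold lower, where 3.96% of all genes were. The lowest were *Ndufs1*, the largest core subunit of complex I, at 36.95 and 26.3 CPM, *Ndufaf4* at 28.2 and 20.05 CPM, and *Ndufaf7* at 19.1 and 14.1 CPM.

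In macrophages most core subunits had ratios below 0, as had most genes, of which 37.6% were above 0, while *Cycs* was among the highest members. The 7 core subunits of complex I examined all had ratios below 0, from −0.42 for *Ndufs1* to −0.04 for *Ndufs3*, and the counting interval of *Ndufs3* alone spans 0. All 4 complex II genes were below 0, *Sdhd* with an interval that spans it, and *Sdha*, the flavoprotein, at 113.3 and 97.1 CPM and *Sdhb* at 222.1 and 192.6 CPM. In complex III, *Cyc1* was at 101.7 and 92.8 CPM and *Uqcrc1* at 180.3 and 181.9 CPM. In complex IV, *Cox4i1* was at 1442 and 1367 CPM, while *Cox5b* was at 326.7 and 369.0 CPM. The F1 subunits of ATP synthase differed among themselves. *Atp5a1* (alpha) was at 366.4 and 302.6 CPM and *Atp5c1* (gamma) at 345.9 and 303.7 CPM. *Atp5d* (delta) was at 314.2 and 288.2 CPM but *Atp5e* (epsilon) at 459.2 and 587.9 CPM, both named after their values were seen. *Atp5b* (beta), at 440.7 and 428.6 CPM, had an interval that spans 0. Against the median of all genes, −0.09, the members *Ndufs3*, *Sdhd*, *Uqcrc2*, *Cox4i1* and *Atp5b* lay above it although below 0.

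In tumor cells the sums were 34312 and 33518.5 CPM. Of 91 members 32 were above 0, or 35.2%, against 43.4% of all genes, and the median was −0.08 against −0.05. *Atp5g1* and *Cox7a1* were at least 1.5-fold higher, where 7.25% of all genes were. *Cox6b2*, *Cox4i2* and *Ndufa4l2* were at least 1.5-fold lower, where 7.50% of all genes were. *Cox4i2* had 38 and 2 UMIs and *Ndufa4l2* 57 and 4, so both reached the minimum of 20 only through the library where they are higher. All of them but *Atp5g1* belong to the restricted isoforms. Besides these, *Atp5k* was at 253.1 and 367.7 CPM, *Sdhb* at 202.5 and 157.9 CPM, and *Ndufb9*, an accessory subunit of complex I, at 397.5 and 305.4 CPM. *Cycs* was at 312.0 and 312.3 CPM, level between the libraries in this class. *Ndufv2* (289.9 and 232.9 CPM), *Uqcrc2* (182.8 and 150.7 CPM), *Cox5b* (581.6 and 511.1 CPM) and *Atp5b* (937.5 and 824.5 CPM) were lower beyond counting error. Intervals of *Ndufs1*, *Ndufs3*, *Sdha*, *Sdhd*, *Uqcrfs1*, *Uqcrc1*, *Atp5a1* and *Atp5c1* span 0, as does that of *Cycs*, and the other core subunits were below it. Of those below 0, *Ndufs3*, *Sdhd* and *Atp5c1* lay above the median of all genes.

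*Atp5g1* is 1 of 3 genes for the c subunit of the rotor of ATP synthase, whose mature proteins are identical. In tumor cells it stood at 129.5 CPM with PBS and 300.7 CPM with anti–PD-1, a log2 ratio of 1.18. *Atp5g2*, at 496.6 and 501.0 CPM, and *Atp5g3*, at 417.3 and 420.6 CPM, were level. *Atp5g1* thus gave 12.4% (Clopper-Pearson interval 11.6% to 13.2%) and 24.6% (23.2% to 26.1%) of the UMIs of the 3 genes. UMIs of *Atp5g1* were found in 25.1% and 39.4% of tumor cells, although the anti–PD-1 cells were shallower, with a median of 1595 UMIs against 2378.5. In tumor cells with Y-linked and no *Xist* UMIs it was at 87.2 CPM (77 cells) and 306.3 CPM (236 cells). Within the PBS library it was lower in those cells than in cells with *Xist* and no Y-linked UMIs, at 87.2 against 137.0 CPM. In T cells the same gene was at 198.3 and 198.4 CPM and in NK cells at 169.2 and 165.2 CPM. It was higher beyond counting error in monocytes, at 136.2 and 180.8 CPM, and in plasma cells, at 167.7 and 217.5 CPM. *Atp5g2* and *Atp5g3* were named after their values were seen.

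Markers of other classes differed in tumor cells too, in both directions. The summed CPM of the neutrophil markers was 160.4 and 805.3, with 8 of 8 higher and none at 0, and that of the macrophage markers 380.8 and 817.9, with 6 of 8 higher and none at 0. Kupffer cell markers were at 115.0 and 462.2 CPM (6 of 6 higher), and plasmacytoid dendritic cell markers, with the largest fold, at 23.1 and 384.7 CPM, although only 3 of 8 were higher. T cell markers were at 93.5 and 179.3 CPM (8 of 8), NK cell markers at 27.9 and 65.9 CPM (8 of 8) and B cell markers at 50.6 and 94.5 CPM (7 of 8). Plasma cell markers were lower in sum with anti–PD-1, at 302.5 and 167.4 CPM, although 5 of 8 were higher. Sums were also lower for hepatocyte markers (76.4 and 67.0 CPM, 1 of 8 higher). Endothelial cell markers were at 50.9 and 41.3 CPM (4 of 8 higher). Type 2 dendritic cell markers were at 64.7 and 61.6 CPM (4 of 8 higher). The part of such RNA in the ratios of tumor cells was not tested. With a gate that asked for a lead of 2 markers, *Atp5g1* was at 135.2 and 314.9 CPM. Without cells that held 5 or more pancreatic acinar UMIs, a setting chosen after seeing the data, it was at 123.9 and 310.6 CPM.

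The restricted isoforms other than *Cox8b*, *Cox8c* and *Cox7b2* were each highest in 1 class, though not confined to it. *Cox6a2*, the heart and muscle form of a complex IV subunit, was found in plasmacytoid dendritic cells (pDCs), with 80 cells in the first library and 48 in the second. It stood at 1110.3 CPM (468 UMIs) and 1199 CPM (336 UMIs) there, and 82.5% and 85.4% of the cells held a UMI, at median depths of 4924 and 5829 UMIs. In T cells, at 2737 and 3625 UMIs, 0.123% and 0.315% did. Its widely expressed partner *Cox6a1* was at 529.1 and 606.8 CPM in the same cells, so *Cox6a2* gave 67.7% (64.1% to 71.2%) and 66.4% (62.1% to 70.5%) of the UMIs of the pair. UMIs here are not scaled by transcript length. In the other dendritic cell classes *Cox6a2* had no UMI in either library. In macrophages it was at 2.13 and 6.09 CPM, with UMIs in 1.51% and 1.55% of cells, and in neutrophils at 0.395 and 5.05 CPM. Of its UMIs in gated cells, 85.7% and 68.4% lay in pDCs. No counts of the pDC class were compared between libraries, as 1 of them held fewer than 50 cells.

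*Ndufa4l2*, a hypoxia-responsive relative of the complex IV subunit *Ndufa4*, was a gene of CAFs. It stood at 190.0 CPM (173.1 to 208.0) with PBS and 101.1 CPM (81.4 to 124.1) with anti–PD-1, or 27.5% and 15.4% of the UMIs of the pair. UMIs were found in 25.7% of 456 and 12.4% of 170 CAFs, at median depths of 3703 and 2932.5 UMIs, against 0.370% and 0.200% of T cells. In tumor cells it was at 8.46 and 1.45 CPM and in PBS T cells at 2.04 CPM. *Cox4i2*, the form of *Cox4i1* found in lung and vessel-associated cells, was also highest in CAFs, at 33.4 and 28.9 CPM, where *Cox4i1* was at 1244 and 1281.5 CPM. The intervals of *Cox4i2* in the libraries overlap, and CAFs held 33.1% of its gated UMIs with PBS. With anti–PD-1 the largest part was in Kupffer cells, which held 53 of 156, or 34.0%, against 26 in CAFs.

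*Cox7a1* and *Cox6b2* were highest in tumor cells and had ratios of opposite sign there. *Cox7a1*, the heart and muscle form, was at 53.8 and 106.9 CPM, and at 3.98 and 4.50 CPM in T cells. Its partner *Cox7a2* was at 546.8 and 586.8 CPM in tumor cells, so *Cox7a1* gave 8.97% and 15.4% of the pair. *Cox6b2*, the testis form, was at 87.1 CPM (80.2 to 94.4) and 42.7 CPM (35.4 to 51.2), while *Cox6b1* was at 1039 and 980.2 CPM. UMIs of *Cox6b2* were found in 19.6% and 9.05% of tumor cells, against 1.97% and 1.34% of T cells. In anti–PD-1 CAFs it was at 28.9 CPM (18.9 to 42.3), an interval that overlaps that of tumor cells. In tumor cells with Y-linked and no *Xist* UMIs, *Cox6b2* was at 92.1 and 28.3 CPM and *Cox7a1* at 49.4 and 109.4 CPM.

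**Figure D3:**
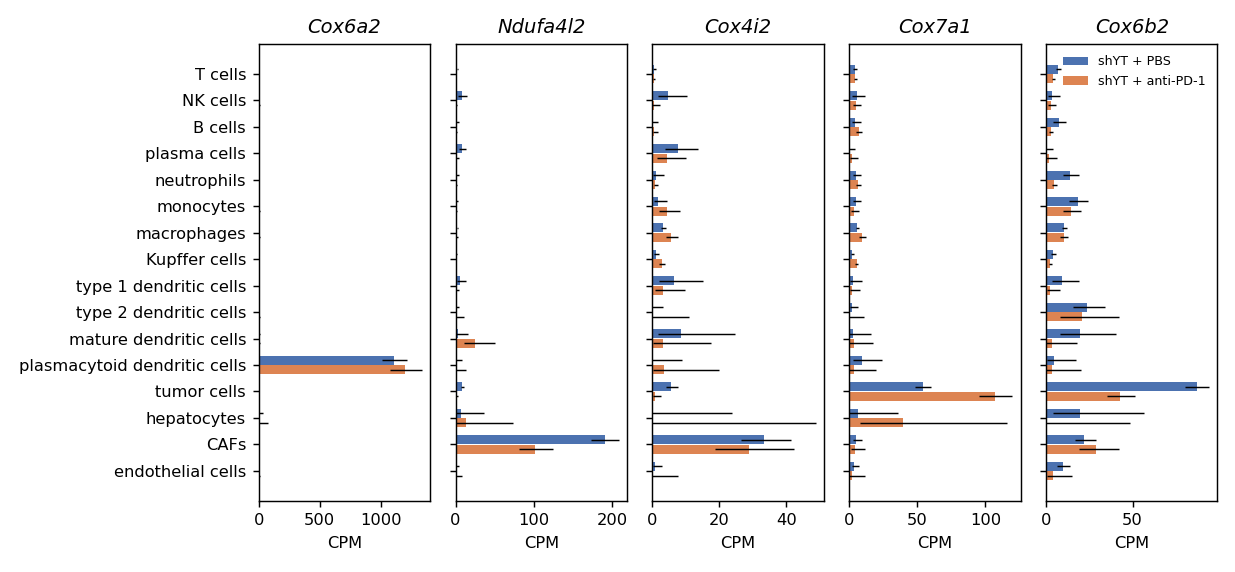
Level of 5 restricted isoforms (CPM, linear axes that differ between panels) in all 16 gated classes, in the shYT + PBS (blue) and shYT + anti-PD-1 (orange) library, as bars from 0 with exact Poisson 95% intervals. *Cox6a2* stands at 1110.3 and 1199 CPM in plasmacytoid dendritic cells, *Ndufa4l2* and *Cox4i2* are highest in CAFs, and *Cox7a1* and *Cox6b2* in tumor cells.

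Members with transcripts under 600 bases had higher median ratios than those of 1000 bases or more, with the exception of the 5 longest in several classes. This was looked at after the values were seen. Transcript length was taken as the median of a gene's annotated protein-coding transcripts in GENCODE M21. It ranged from 321.5 to 3123 bases over the members, with a median of 681.5. Which transcripts were expressed was not measured, so this need not be the length of the captured mRNA. *Ndufs1*, the gene of the largest core subunit of complex I, was at 651 bases and *Ndufb2* at 2413. Members may therefore stand in the wrong length range. In macrophages, members under 600 bases had a median log2 ratio of 0.24 and 27 of 33 were above 0, those from 600 to under 1000 bases had 0.05 (19 of 35), and those of 1000 bases or more −0.09 (6 of 25). Of all genes in these ranges, 52.3%, 40.9% and 37.1% were above 0. T cells had 0.08, −0.01 and −0.06 in the same order, NK cells 0.11, 0.02 and −0.05, and B cells 0.14, 0.06 and −0.00. Neutrophils had 0.06, −0.03 and −0.05. Tumor cells had 0.00, −0.14 and −0.08, and did not fall steadily with length.

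Across the 84 to 93 members tested in a class, Spearman's rho between length and ratio lay between −0.51 in macrophages and −0.15 in neutrophils. Members are not replicates and all ratios rest on the same libraries. Over all genes tested, rho lay between −0.16 and −0.03. Genes that are neither members nor cytosolic ribosomal protein genes had medians in macrophages of −0.01 under 600 bases, −0.06 from 600 to under 1000, and −0.09 at 1000 or more. Short cytosolic ribosomal protein genes were also higher than those of middle length: in the same order their medians were 0.07, −0.10 and −0.04 in macrophages and 0.07, −0.14 and −0.08 in T cells, where the members had much the same value under 600 bases. The 5 members longest by the annotated median, *Cycs*, *Atp5g1*, *Atp5a1*, *Ndufb2* and *Ndufaf4*, go against this in 5 classes. There their median ratio was above that of members under 600 bases, at 0.25 against 0.24 in macrophages and 0.15 against 0.14 in B cells. It was 0.29 against 0.29 in Kupffer cells, 0.37 against 0.30 in plasma cells and 0.15 against 0.15 in CAFs. In neutrophils it was −0.07 against 0.06 and in T cells 0.00 against 0.08. Values for *Atp5md* in cells with Y-linked and no *Xist* UMIs were 195.1 and 333.3 CPM in macrophages and 270.8 and 430.4 CPM in T cells, while *Ndufs7* was at 142.5 and 121.0 CPM and at 186.8 and 126.2 CPM. In such NK cells *Ndufs7* was higher with anti–PD-1, at 107.3 (24 UMIs) and 140.7 CPM, and in neutrophils it was at 106.7 and 104.7 CPM. *Cox7c* was at 377.2 and 561.0 CPM in macrophages of this kind. In tumor cells of this kind these 2 genes differed less than in macrophages, with *Atp5md* at 575.8 and 604.9 CPM and *Cox7c* at 932.7 and 995.5 CPM. *Ndufs7*, at 238.5 and 162.8 CPM, and *Ndufs1*, at 75.7 (46 UMIs) and 41.8 CPM, differed more in tumor cells than in macrophages. *Cycs* was lower there with anti–PD-1, at 324.1 and 302.4 CPM. In such neutrophils *Atp5k* was at 112.1 and 132.9 CPM.

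**Figure D4:**
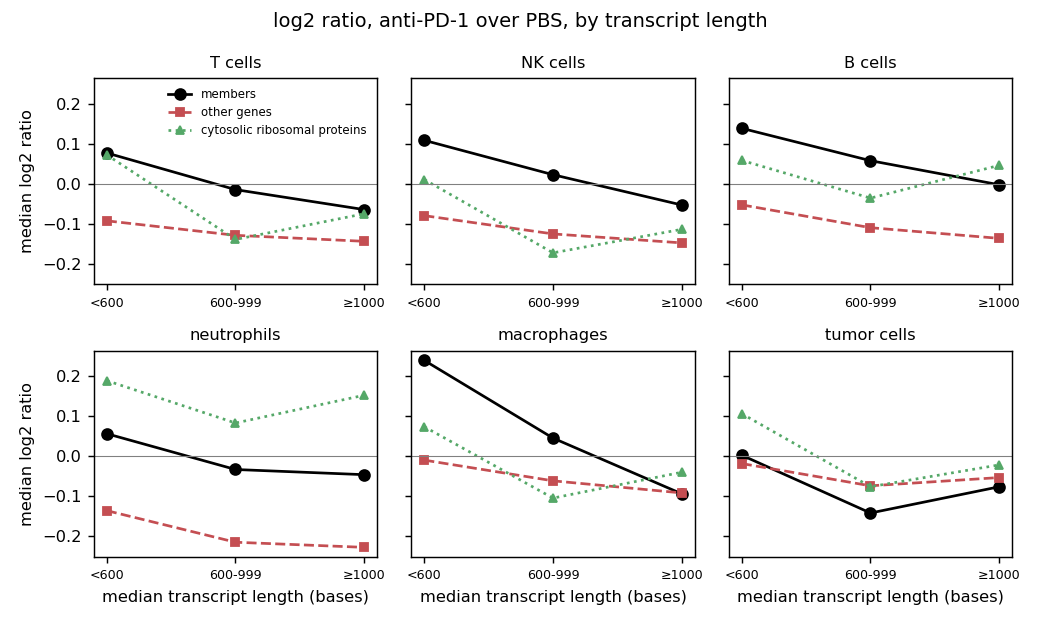
Median log2 ratio (anti-PD-1 over PBS, 5 CPM added) by transcript length in 6 classes, for members (black circles), cytosolic ribosomal protein genes (green triangles) and all other genes (red squares). In macrophages the members go from 0.24 under 600 bases to −0.09 at 1000 bases or more.

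Cycling T cells gave more of their UMIs to the members than other T cells in both libraries. T cells were thinned to 1000 UMIs, which left out 38 and 31 cells, and a cell that held UMIs of 2 or more among 10 proliferation genes was called cycling. With PBS, members made up 2.64% (2.57% to 2.72%) of the UMIs of 172 cycling cells and 2.06% in 3037 other T cells. With anti–PD-1 they made up 3.02% (2.96% to 3.08%) in 285 cycling cells and 2.11% in 3179 others. The log2 ratios were 0.36 (0.31 to 0.40) and 0.52 (0.49 to 0.55). Before thinning the cycling cells were deeper, with medians of 7391.5 UMIs against 2691 with PBS and 7984 against 3527 with anti–PD-1, and the part of this in the ratios was not tested. Without thinning, cycling cells had 2.71% and 2.85% and other T cells 2.09% and 2.10%, and the ratios were 0.38 and 0.44. Cycling cells were then 10.8% and 19.5% of T cells, and their part in the ratio of all T cells was not tested.

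Single members were compared without thinning, in 351 cycling and 2896 other T cells with PBS and 683 and 2812 with anti–PD-1. That call was not made at equal depth, with medians of 5751 against 2632 UMIs and 6106 against 3343. Of 89 members with at least 100 UMIs in T cells, 79 were higher in cycling cells in both libraries. Of all genes with that count, 35.2% were. The medians of the members were 0.36 and 0.45, where all genes had −0.05 and −0.00. At least 1.5-fold higher in both were 12 members, where 5.92% of all genes were. *Ndufb8*, an accessory subunit of complex I, was at 239.2 CPM in cycling and 139.2 CPM in other T cells with PBS, and at 228.8 and 122.3 CPM with anti–PD-1. *Cycs* was at 264.7 and 159.8 CPM, and at 378.4 and 224.7 CPM. *Uqcr10* of complex III was at 456.8 and 265.5 CPM, and at 443.8 and 283.0 CPM. The 3 members lower in both were *Cox7a2l* (351.0 and 432.8 CPM, 325.1 and 423.4 CPM), *Ndufa6* (333.5 and 384.5 CPM, 350.5 and 401.7 CPM) and *Ndufaf4* (47.2 and 47.6 CPM, 36.8 and 40.6 CPM). These members were named after their values were seen.

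**Figure D5:**
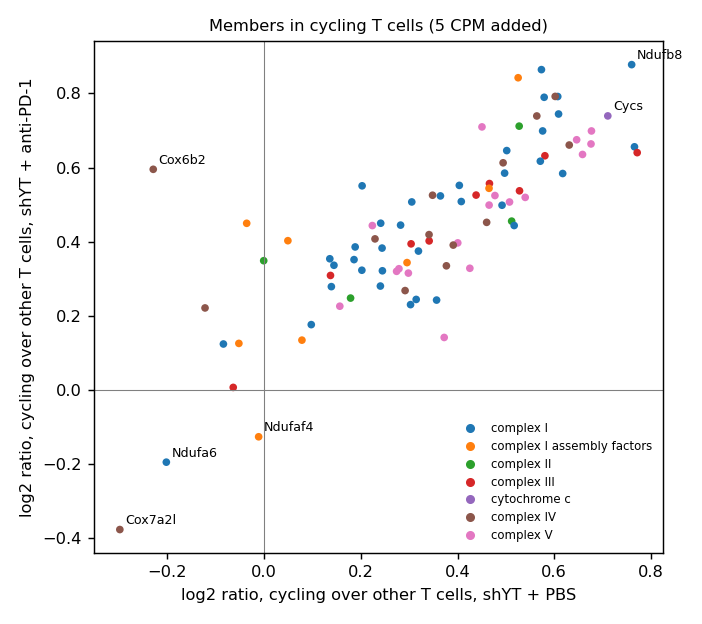
Log2 ratio of cycling over other T cells (called and counted without thinning, 5 CPM added) of 89 members, coloured by complex. The shYT + PBS library is on the horizontal and the shYT + anti-PD-1 library on the vertical axis. The 79 members higher in both libraries lie above 0 on both axes, and *Cox7a2l* is lowest in both.

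Other genes of the mitochondrion had their own ratios. The 13 mRNAs encoded by mitochondrial DNA had sums at 39907 and 43907 CPM in T cells, a log2 ratio of 0.14, but at 41643 and 37951 CPM in macrophages, where the members were higher and this list was at −0.13. In macrophages 3 of the 13 were above 0. In Kupffer cells 8 of the 13 were, with a ratio of sums of 0.07, and in monocytes 10, with 0.16. The ratio of this list was also below 0 in tumor cells (−0.03), CAFs (−0.05) and type 1 dendritic cells (−0.04). Of 78 mitochondrial ribosomal protein genes, 9 were above 0 in T cells and 69 below, with a median of −0.18, and in macrophages 34 of 77 were above 0, with a median of −0.06. Over all genes tested, 28.9% were above 0 in T cells, 37.6% in macrophages and 43.4% in tumor cells, and several of the following counts are near these shares. The TCA cycle enzymes had 5 of 13 above 0 in T cells, in macrophages and in tumor cells. Assembly factors outside the naming rule had 6 of 29 above 0 in T cells and 14 of 29 in macrophages. The regulators list had 3 of 10 above 0 in T cells and 4 of 10 in macrophages. In T cells the ratio of the sums was 0.12 for the regulators, although most of their genes were below 0, and 0.01 for the TCA cycle and 0.01 for the assembly factors, both with intervals that span 0. Cytosolic ribosomal protein genes had 26 of 81 above 0 in T cells and 63 of 81 in neutrophils.

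Genes of the dissociation stress list were higher with anti–PD-1 in most of the 6 main classes. In macrophages 14 of 14 were above 0 with a median of 1.33, in tumor cells 14 of 14 with 1.71, in T cells 14 of 14 with 0.59, in NK cells 14 of 14 with 0.59, in B cells 13 of 14 with 0.57, and in neutrophils 9 of 14 with 0.09. In the other classes the medians were 1.21 in plasma cells (14 of 14), 1.04 in type 1 dendritic cells (11 of 14), 1.20 in Kupffer cells (14 of 14), 0.92 in monocytes (12 of 14), 2.11 in CAFs (14 of 14) and 1.82 in endothelial cells (14 of 14). Their part in the ratios of the members was not tested.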

How the data were processed

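Single-cell RNA-Seq was prepared with the Singleron GEXSCOPE kit. The authors deposited unnormalised UMI counts, a matrix of genes by barcodes, from Singleron software run on mm10. Its version, the annotation, and how strand and multimapping reads were treated are not given in the sources used here. Seurat 4.3 is named in the submitters' processing notes. The labels set the groups. The members, gene lists and comparisons were chosen with earlier results of these data known.

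Barcodes with fewer than 500 or more than 5000 genes, or over 10% of UMIs from mitochondrial genes, were dropped. A cell joined a class with UMIs of at least 3 of its 8 markers and more markers than of any other class. Cells of the macrophage class with *Clec4f* and at least 3 of 6 Kupffer markers became Kupffer cells. Those with no *Clec4f* stayed macrophages, and the rest were left out. Doublets were not called, and the gate leaves out cells with equal numbers of markers of 2 classes. For each class of a library, summed UMIs were scaled to CPM. Log2 ratios of single genes had 5 CPM added to both libraries, which understates ratios of low genes, and genes needed 20 UMIs in the class. Intervals are exact (Clopper-Pearson, conditional binomial or Poisson, 95%) and cover counting error only. With 1 library per group no test was made. Named members were the 3 highest and 3 lowest ratios among members with at least 100 UMIs in each of 6 main classes (T, NK, B and tumor cells, neutrophils and macrophages), the restricted isoforms with their partners, and core subunits in macrophages and tumor cells. Alternatives changed the cell filters, gate, weighting, depth, scaling and members. Coordinates came from GENCODE M21 (GRCm38) and promoters from RefSeq. Python 3.11.15, numpy 2.4.6, scipy 1.17.1 and pandas 2.3.3 were used, and the ratio, its interval and the thinning were tested on simulated data.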

Additional observations from a re-analysis of the deposited data

Results flagged for a closer look

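The summed ratio of the members in tumor cells, −0.0338 on the log2 scale, was opposite in sign to that in the other 11 classes compared. There is 1 library per group, and the difference between the classes was not tested. The value turned above 0 in 3 alternative settings given below.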

How the results depend on the processing

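The ratio of sums in the 6 main classes was recomputed under 12 alternatives, or 13 for tumor cells. B cells and neutrophils kept a ratio above 0 under each. Values here are log2 ratios outside the counting interval of the reported one, and their cause was not tested.
In tumor cells the ratio turned above 0 with up to 20% mitochondrial UMIs (0.0127), with the median of all genes set to 0 (0.0204) and with members under 600 bases only (0.0117). It was −0.0458 without an upper limit on genes, −0.00265 as a mean over cells and −0.000588 after thinning to 1000 UMIs. Without the 3 members with most UMIs it was −0.0194, and in cells with Y-linked and no *Xist* UMIs −0.159. It was −0.0574 with members of at least 1000 bases and −0.0207 without cells holding 5 or more pancreatic acinar UMIs. The acinar and both length settings were chosen after seeing the data, and length is the annotated median, not that of the captured mRNA.
With members of at least 1000 bases the ratio changed sign in macrophages (−0.0411), T cells (−0.0155) and NK cells (−0.00148), and was 0.0273 in B cells and 0.0112 in neutrophils. With members under 600 bases it was 0.235 in macrophages, 0.167 in T cells, 0.173 in NK cells, 0.176 in B cells and 0.0979 in neutrophils.
Setting the median of all genes to 0 gave 0.198 in macrophages, 0.210 in T cells, 0.231 in NK cells, 0.231 in B cells and 0.267 in neutrophils. Cells with Y-linked and no *Xist* UMIs gave 0.171, 0.0997, 0.192, 0.0548 and 0.0209 in the same order.
A lead of 2 markers gave 0.0960 in macrophages, 0.0821 in T cells, 0.152 in NK cells, 0.121 in B cells and 0.0643 in neutrophils. A mean over cells gave 0.187 in macrophages, 0.0562 in T cells and 0.0831 in neutrophils. Thinning gave 0.159 in macrophages and 0.0580 in T cells. In macrophages it was 0.120 with up to 20% mitochondrial UMIs and 0.131 without the 3 members with most UMIs, and in neutrophils 0.00681 without an upper limit on genes.
Without thinning, the ratio of cycling to other T cells was 0.439 with anti–PD-1. No median over members left the interval of order statistics around it under 18 alternatives of pseudocount and count minimum. NK cells, with 1276823 UMIs in the PBS library, limit single members most among the 6 classes. No paired analysis was possible because each group has 1 library.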
